A study of Xenopus laevis with 18 samples.

Results

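Tubulins, the kinesin and dynein motors that run along microtubules, and the proteins of the centrosome and cilium were followed through gastrulation and the start of neurulation in Xenopus laevis embryos. The genes were chosen by symbol, with earlier results of these data known. The rule took probe sets whose symbol begins with tuba, tubb, tubg, kif, dync, dnah, dnai, dnal, ift, stmn, mapre or cep. For kif, ift and cep a number had to follow. This gave 113 probe sets for 86 gene symbols, out of 23630 probe sets tested, of which 12258 carried 1 symbol. No probe set with several symbols matched. One-cell embryos received 0.5 ng of Gam1 mRNA or 9.2 nL of water and were collected at early gastrula (EG, 9 h after fertilization), late gastrula (LG, 13.5 h) or early neurula (EN, 16.5 h). Gam1, a protein of an avian adenovirus, causes the loss of the enzyme that activates SUMO, a small protein attached to others as a modifier. Each of the 6 groups had 3 biological replicates, and each sample pooled 20 whole embryos. Since controls were given water alone, effects of Gam1 and of injected mRNA as such cannot be told apart.

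Microtubules are polymers of alpha- and beta-tubulin that grow from templates of gamma-tubulin, often at a centrosome. In dividing cells they form the spindle, where mitotic kinesins push, pull and depolymerize them. In cilia they form the axoneme, which is built by intraflagellar transport (IFT) and bent by axonemal dyneins. A frog egg is stocked with mRNA for rapid cleavage divisions, and embryonic transcription starts shortly before gastrulation. Multiciliated cells of the epidermis and the first neurons are specified around the end of gastrulation. The genome is a tetraploid one in which many genes have an L and an S copy, shown by the suffix of the symbol. The 113 probe sets were sorted into 15 for spindle and cytokinesis motors, 18 for gamma-tubulin with plus-end and tubulin-binding factors, 20 for centrosome and centriole, 30 for cilium, 6 for forms known from neurons, 8 for cytoplasmic dynein and cargo kinesins, and 16 for other tubulins. The light chain gene dnal4, named as axonemal, was counted with cytoplasmic dynein and not with the cilium group.

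Values are log2 expression as deposited after quantile normalization, so a change of 1 is a doubling, and every change is relative to the whole array. The lowest value on every array was 2.07, and the size of a change that ends near this floor is only a lower limit. Levels were compared within a probe set and never between probe sets. A change was called where limma's moderated test gave an adjusted p under 0.05 over all 23630 probe sets. Of the 113 probe sets, 94 are of the class designed for 1 transcript and 19 are of classes that may detect related transcripts. Tubulin isotypes are close to identical over much of their length, so the identity of a tubulin signal remains uncertain. In whole embryos, fewer cells of a type and less RNA per cell cannot be told apart. The 5 muscle probe sets averaged between 2.61 and 3.35 on the 6 EG arrays and between 10.8 and 11.9 on the 6 EN arrays, and the order of stages in the labels held for these markers.

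Over gastrulation in water embryos most probe sets for spindle motors, for the centrosome and for the gamma-tubulin group fell. Of the 16 probe sets for other tubulins, 8 rose. Stored and newly made RNA cannot be told apart in these values. Of the 113 probe sets, 69 changed between EG and LG, 16 higher and 53 lower. Among all probe sets tested 53.6% changed, 24% higher and 29.6% lower, against 14.2% higher and 46.9% lower among the tubulin, kinesin and dynein probe sets. Their median change was -0.48, beside -0.08 for all probe sets. The 3 groups with the lowest medians were gamma-tubulin with plus-end factors at -1.15, centrosome at -1.06 and spindle motors at -0.65, and the other tubulins alone had a median above 0, at 0.98.

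**Figure D1:**
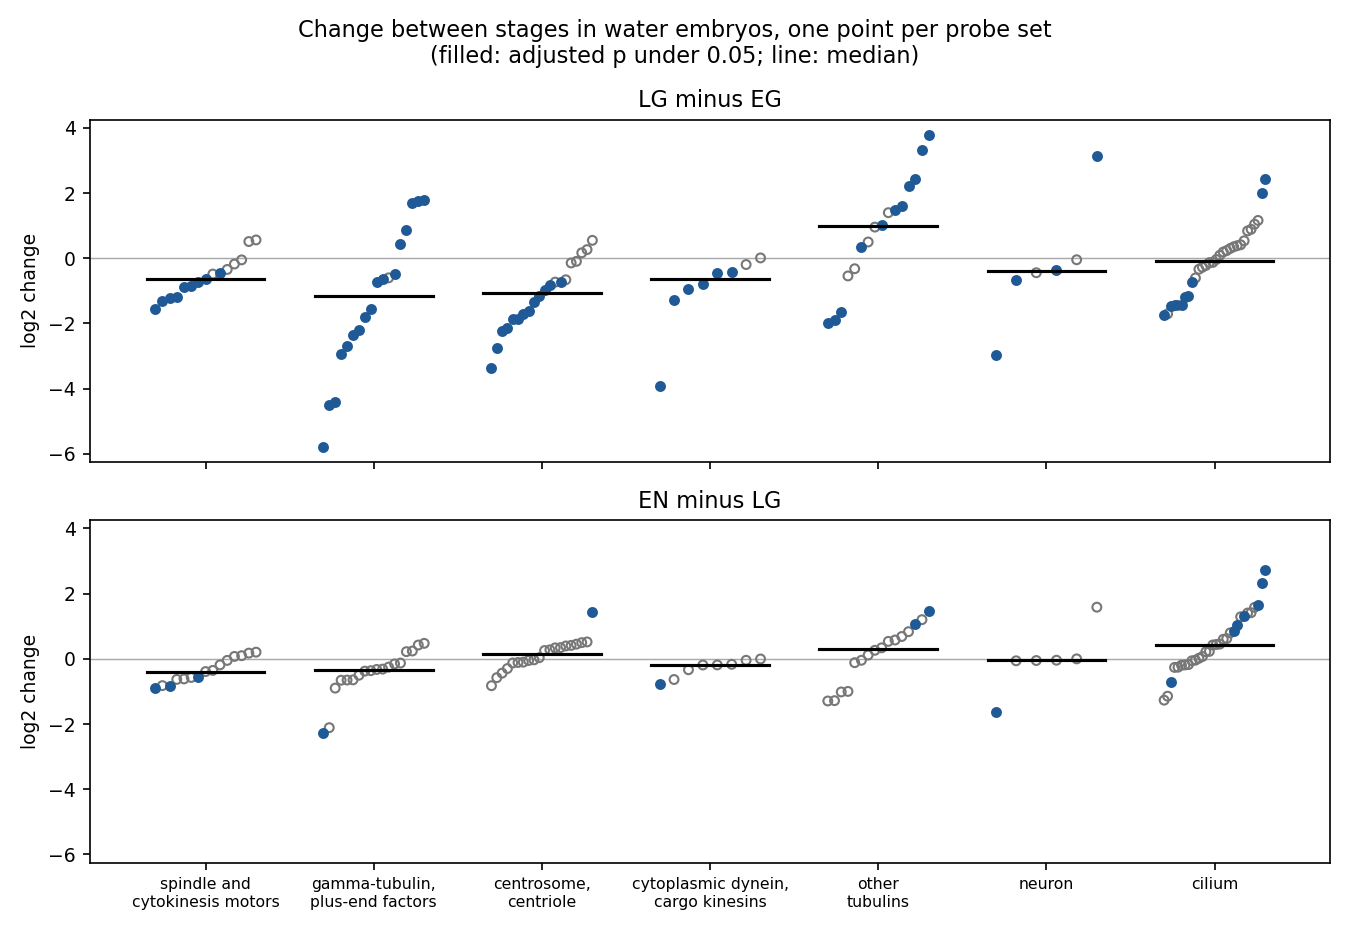
Log2 change of each of the 113 probe sets in water embryos, by group, from EG to LG (upper panel) and from LG to EN (lower panel). Filled points had an adjusted p under 0.05 in limma and lines are medians. Over gastrulation no spindle motor, centrosome or cytoplasmic dynein probe set was called higher, whereas 8 of the 16 other tubulin probe sets were.

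Of the 15 probe sets for spindle and cytokinesis motors, 9 fell over gastrulation and none was called higher. The chromokinesin kif22.L, which pushes chromosome arms toward the spindle equator, read 12.68, 12.55 and 12.55 on the EG arrays and 10.86, 11.1 and 11.2 on the LG arrays. The groups lay apart, as for 68.1% of the 113 probe sets and 62.8% of all probe sets at this step. The level fell by 1.55 on the log2 scale (SE 0.10, adjusted p = 2.29e-05 in limma). The other chromokinesin, kif4a.S, fell by 1.3 (SE 0.41, adjusted p = 0.0279), a call that was lost without EG replicate 2 or 3 or LG replicate 1 (adjusted p from 0.0744 to 0.0832).

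The motors of bipolar spindle assembly did not all fall. The kinesin-5 motor kif11.L, which slides antiparallel microtubules apart, read 9.8, 10.69 and 9.36 at EG and 8.15, 9.07 and 8.97 at LG. It fell by 1.22 with groups that did not overlap, as for 62.8% of all probe sets. That call (adjusted p = 0.0356 in limma) rested on single arrays, since leaving out EG replicate 1 or 2, LG replicate 1 or 3 or EN replicate 3 brought the adjusted p to between 0.0503 and 0.114. Its other copy, kif11.S, had a value of -0.05 (SE 0.26), and both copies of kif15, which can share this work, had positive values of 0.51 and 0.56 that did not pass. The depolymerase kif2c.S fell by 1.19. The cytokinesis motors kif20a.S and kif20b.S and both kif23.S probe sets fell by between 0.65 and 0.87.

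The gamma-tubulin group held the steepest falls. For gamma-tubulin itself, tubg1.L read 10.36, 10.19 and 8.48 at EG and 4.43, 3.76 and 3.51 at LG. It fell by 5.78 (SE 0.52, adjusted p = 7.38e-05), and since the later values approach the floor this is a lower limit. The S copy fell by 1.55 and 1.8 in its 2 probe sets, so it kept the higher share of its starting signal.

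The proteins that hold gamma-tubulin in a ring followed different paths. All 4 probe sets of tubgcp3.S fell, by between 2.19 and 4.49, and tubgcp4.L fell by 2.37. By contrast tubgcp6.L rose from 8.84, 8.81 and 8.47 at EG to 10.53, 10.25 and 10.39 at LG, a change of 1.69 (SE 0.13). Both copies of mapre1, the plus-end tracking protein EB1, also rose, with 1.76 for mapre1.S and 0.43 for mapre1.L.

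Stathmin 1, which binds free tubulin and favours depolymerization, fell in both copies but unequally. The S copy read 13, 13.77 and 12.64 at EG and 10.45, 10.71 and 10.22 at LG, so it fell by 2.68, while the L copy fell by 0.63. Both copies of the depolymerase kif2a fell, by 0.74 for kif2a.L and 0.49 for kif2a.S. In the whole group 12 probe sets fell and 5 rose of 18, and 2 of those that rose belong to mapre2.S, whose 3 probe sets averaged under 5 in every group.

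Of the 20 centrosome and centriole probe sets, 13 fell and none was called higher. The centriolar satellite protein cep20.L read 11.16, 11.3 and 10.7 at EG and 7.46, 8.12 and 7.51 at LG, so it fell by 3.36 (SE 0.30). The centriole elongation factor cep120.L fell by 2.76, cep85.S by 2.24, and cep192.L, which recruits material around the centriole, by 2.14. The members that did not pass included cep63.L, cep95.L and both cep44.L probe sets, with values from -0.14 to 0.27.

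Cytoplasmic dynein subunits also fell. The light intermediate chain dync1li2.S read 6.46, 6.39 and 6.16 at EG and 2.41, 2.43 and 2.44 at LG, close to the floor, and stayed there at EN. Its relative dync1li1 fell in both copies, by 1.27 for dync1li1.L and 0.96 for dync1li1.S, and the conventional kinesin heavy chain kif5b.S fell by 0.8. The intermediate chain dync1i2.S had a value of 0.01 (SE 0.13).

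**Figure D2:**
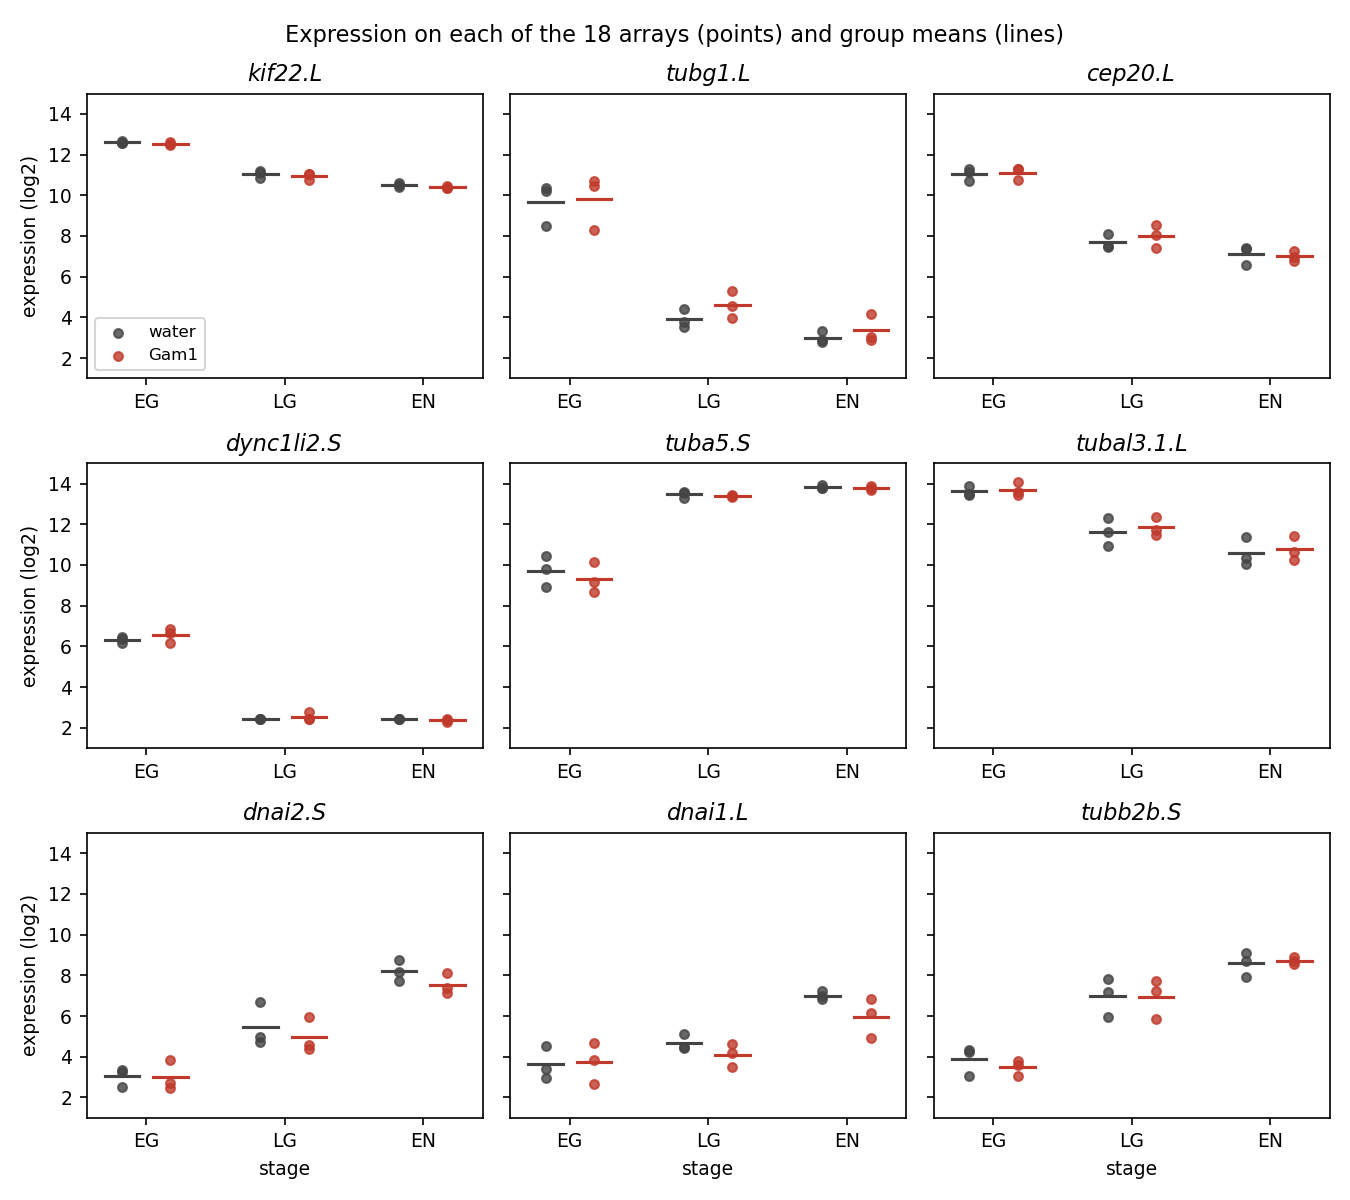
Log2 expression of 9 genes on each of the 18 arrays (points) with the mean of each group of 3 (lines), water embryos in grey and Gam1 embryos in red. The values of tubg1.L and dync1li2.S dropped toward the floor of 2.07 between EG and LG, those of tuba5.S rose by 3.78, and those of dnai2.S rose at both steps.

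The tubulin genes themselves moved in opposite directions. The alpha-tubulin tuba5.S read 9.78, 8.9 and 10.42 at EG and 13.56, 13.56 and 13.3 at LG, a rise of 3.78 (SE 0.33, adjusted p = 6.71e-05). Over the same interval tubal3.1.L, another alpha-tubulin, read 13.45, 13.9 and 13.48 and then 10.95, 12.3 and 11.6, so it fell by 1.99, and the 2 probe sets of its S copy fell by 1.64 and 1.9.

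Other alpha-tubulins that rose were tuba1cl.3.L by 3.32, 1 of the 2 tuba4b.L probe sets by 1.61, and both tuba1c.S probe sets by 1.01 and 0.34. The probe set of tuba1cl.3.L is of a class that may detect related transcripts and comes from the same sequence cluster as the tuba4b.L probe set that rose. Among beta-tubulins, tubb4b.L rose from 9.26, 9.52 and 9.11 to 12.01, 12.13 and 11.07, a change of 2.44, and both tubb.L probe sets rose, by 2.22 and 1.49. In this group 8 probe sets rose, 3 fell and 5 did not pass.

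Of the forms known from neurons, tubb2b.S was the member that rose, and the rest did not follow it. This beta-tubulin, a marker of differentiating neurons in Xenopus, read 4.33, 4.24 and 3.05 at EG and 7.21, 7.83 and 5.97 at LG, a rise of 3.13 (SE 0.58). The neuronal beta-tubulin tubb3.L stayed at the floor, with values from 2.07 to 2.19 on all 18 arrays. The 2 probe sets of tubb4a.S read between 12.16 and 13.66 on every array, EG included, and fell by 0.67 and 0.35. The larger of these 2 falls was not called without replicate 1 (adjusted p = 0.0766) or without replicate 3 (adjusted p = 0.0961). The plus-end protein mapre3.S fell, from 8.72, 9.09 and 8.39 to 5.23, 5.98 and 6.06.

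The cilium genes split over gastrulation. Of the 30 probe sets 9 were called, 2 higher and 7 lower, a share below that of all probe sets. The 2 that rose were dnai2.S, an intermediate chain of the outer dynein arm, by 2.42 (SE 0.56), and ift20.L, an IFT subunit that also works at the Golgi apparatus, by 2.02 (SE 0.21). The 3 probe sets of cep41, needed for tubulin modification in cilia, fell by between 1.43 and 1.75, and the IFT subunits ift52.L and ift27.L fell by between 1.16 and 1.47.

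From LG to EN probe sets of 4 axonemal dynein subunits rose and 3 probe sets of mitotic motors fell further. In water embryos 16 of the 113 probe sets changed, 9 higher and 7 lower, or 14.2%, beside 7.78% of all probe sets (4.09% higher and 3.69% lower). The cilium group gave 7 of the 16 calls. The outer-arm intermediate chain dnai1.L read 4.47, 5.11 and 4.42 at LG and 7.22, 6.82 and 6.97 at EN, a rise of 2.34 (SE 0.41, adjusted p = 0.0249). For dnai2.S the values were 6.7, 4.74 and 4.95 and then 8.74, 7.72 and 8.15, a rise of 2.74 (SE 0.56, adjusted p = 0.0329).

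The groups did not overlap for either intermediate chain, as for 50.4% of the 113 probe sets and 35.1% of all probe sets at this step. The outer-arm light chain dnal1.L rose by 1.64, the inner-arm light chain dnali1.S by 1.3 and the IFT subunit ift52.L by 1.03, the last after its fall over gastrulation. The remaining rise in the cilium group was of an ift46.S probe set that averaged under 5 in every group. The IFT motor subunit kif3a.L fell by 0.7. The axonemal dynein chain dnai4.S had a value of 0.6 (SE 0.36), which did not pass.

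Outside the cilium group, the beta-tubulin tubb4b.S, an isotype known from axonemes, read 10.34, 10.42 and 9.5 at LG and 11.64, 11.58 and 11.43 at EN, a rise of 1.46 (SE 0.33). The centriole assembly protein cep135.L rose by 1.45 after it fell by 0.96 over gastrulation, and tuba1cl.3.L rose by a further 1.08. The probe sets that fell were kif23.S (1 of 2, by 0.88), kif20b.S by 0.82, kif22.L by 0.55, dync1li1.S by 0.77, 1 of the 4 of tubgcp3.S by 2.26, and mapre3.S by 1.62. For tubb2b.S the value was 1.59 (SE 0.58), which did not pass.

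These 16 calls depended on which arrays were used. Leaving out LG replicate 2, LG replicate 3, EN replicate 1 or EN replicate 3 left 0 calls, leaving out EG replicate 1, 2 or 3 left 4, 12 or 6 through the shared estimate of the spread, leaving out EN replicate 2 left 13, and leaving out LG replicate 1 gave 29. With the replicate number as a block, which takes out differences between clutches of eggs, 30 probe sets were called, beside 16.5% of all probe sets. The direction of the 12 changes named from this step under the rule was the same in every case, though these had been picked by size among the calls.

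The L and S copies of a gene were compared over gastrulation. For the 16 genes with a probe set for each copy, the change of L was tested against the change of S within arrays, with limma over all 1589 such genes on the array. The copies differed in 8 of the 16, beside 44.2% of all 1589 genes, and with the replicate block in 9 of the 16, beside 59.6%. Signals of near-identical copies can cross, so a difference may be understated.

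In 2 genes the copies went in opposite directions by value. For tubb4b the L copy rose by 2.44 while the S copy had a value of -0.32, a difference of 2.76 (SE 0.2, adjusted p = 2.52e-05). For ift20 the L copy rose by 2.02 and the S copy had a value of -0.61, a difference of 2.62 (SE 0.31). In tubg1 (-3.97), kif22 (-1.37) and kif11 (-1.17) the L copy had the more negative change, and in stmn1 (2.05) and cep85 (1.58) the S copy did. The L probe sets of tubg1 and kif22 are of classes that may detect related transcripts, so giving their signal to the L copy is uncertain. For mapre1 both copies rose, the S copy by 1.33 more. No difference between copies passed for tubal3.1 (-0.1, SE 0.18), cep41 (-0.31, SE 0.25) or dync1li1 (-0.31, SE 0.26), and at the step from LG to EN none of the 16 passed, beside 1.7% of all 1589.

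**Figure D3:**
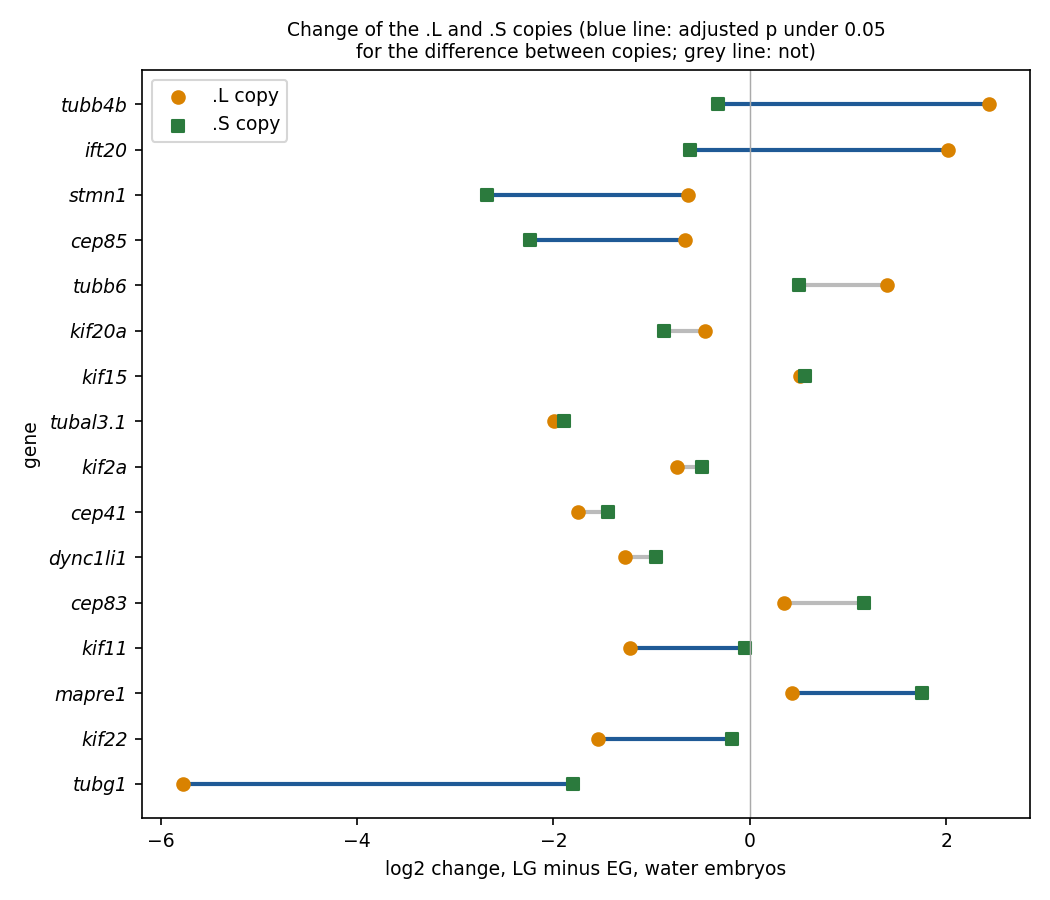
Log2 change from EG to LG in water embryos of the L copy (circles) and the S copy (squares) of 16 genes. Blue lines join copies whose changes differed with an adjusted p under 0.05, as in tubg1, where L fell by 5.78 and S by 1.8, and grey lines those that did not.

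The same steps were then measured in Gam1 embryos. Of the 113 probe sets, 72 changed over gastrulation (16 higher, 56 lower), beside 51.1% of all probe sets (22.7% higher and 28.4% lower). The calls shared with water embryos numbered 66, all in the same direction, which is 95.7% of the calls in water embryos and 91.7% of those in Gam1 embryos, beside 87.5% and 92% over all 23630 probe sets. At the next step 20 changed, 10 higher and 10 lower, beside 12% of all probe sets (5.28% higher and 6.7% lower), and 10 were shared, which is 62.5% of the calls in water embryos and 50% of those in Gam1 embryos, beside 69.3% and 45% over all probe sets. Without LG replicate 2 or 3 of the Gam1 arrays the count of 20 became 4 or 3, without EN replicate 1, 2 or 3 it was 8, 13 or 5, and with the replicate block it was 41, beside 22.8% of all probe sets.

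Over gastrulation 108 of the 113 probe sets had a change of the same sign in Gam1 and water embryos, or 95.6%, beside 92% of all probe sets. The changes in Gam1 embryos were -5.19 for tubg1.L, -3.13 for cep20.L, -1.59 for kif22.L and -4.01 for dync1li2.S, and the rises of tuba5.S, tubb2b.S and tubb4b.L were 4.05, 3.46 and 2.5. At the next step 96 of the 113 had the same sign, or 85%, beside 87.3% of all probe sets, and the differences ran from -1.06 to 0.93. The cilium group had a median change of 0.43 at that step in water embryos, with 20 of 30 probe sets above 0, and of -0.01 in Gam1 embryos, with 14 above 0. Without LG replicate 1 of the Gam1 arrays the latter median was 0.2, and without EN replicate 3 it was 0.11. Called higher were 6 of the 30 in water and 5 in Gam1 embryos.

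In a fit of all 18 arrays, the change in Gam1 embryos was set against that in water embryos for each probe set. No tubulin, kinesin or dynein probe set passed at either step, beside 0.00423% of all probe sets at each, and none had an unadjusted p under 0.05, beside 1.76% and 0.808% of all probe sets. For the cilium group the median difference at the onset of neurulation was -0.19, with 23 of 30 below 0. With the replicate number as a block 0 passed, 2 had an unadjusted p under 0.05 at each step, beside 3.61% and 2.14% of all probe sets, and the adjusted shares of all probe sets were 0.00423% and 0.0127%. With the block taken within each stage 0 passed, beside 0.19% and 0.106% of all probe sets, and 12 and 10 had an unadjusted p under 0.05, beside 12.3% and 7.83%. The median size of the difference was 0.14 over gastrulation and 0.16 at the onset of neurulation. In the fit without a block, which leaves differences between clutches in the spread, the 95% interval of the difference had a median half-width of 0.84 on the log2 scale, at both steps. That interval is unadjusted, whereas a call needed an adjusted p. Differences under that size, and larger ones too, may therefore be missed.

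**Figure D4:**
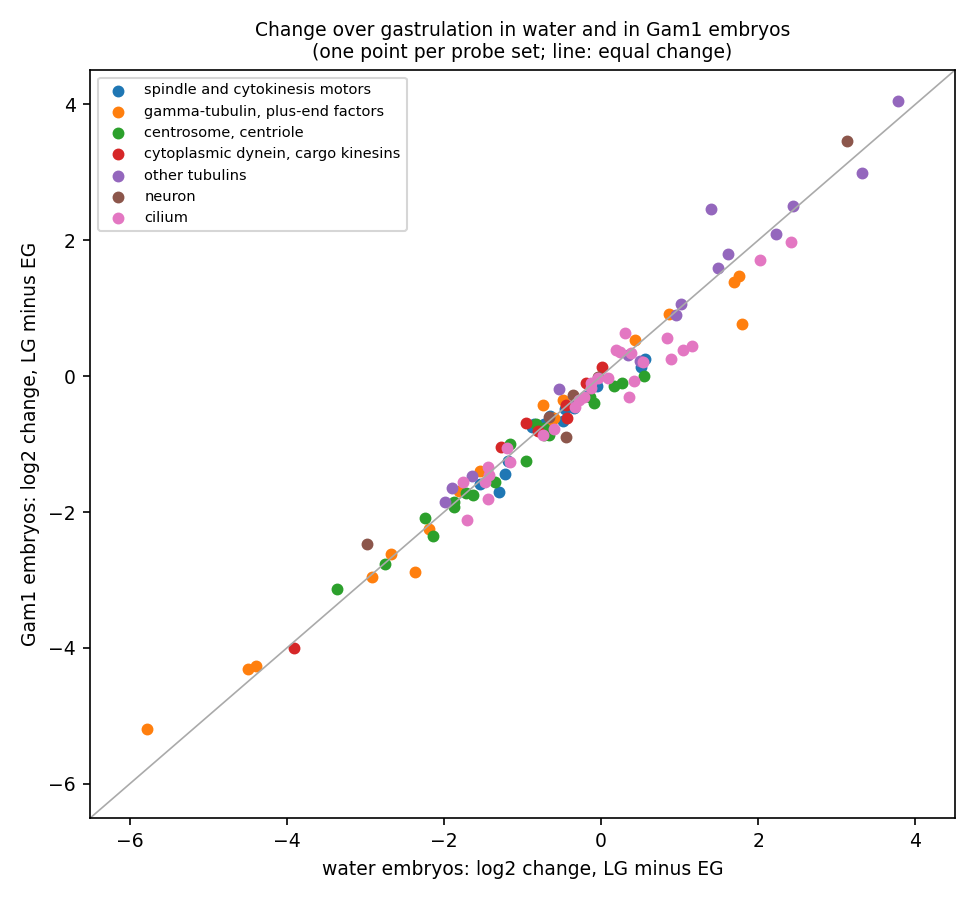
Log2 change from EG to LG of the 113 probe sets in water embryos (horizontal) and Gam1 embryos (vertical), coloured by group, with the line of equal change. Differences from the line ran from -1.02 to 1.06, and none passed the test of the difference between courses.

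Gam1 embryos were then compared with water embryos at each stage. In the fits of 1 stage, no probe set of the 113 passed at EG, LG or EN. None of the 23630 did in limma in these fits (0% at each stage). With an unadjusted p under 0.05 there were 0, 1 and 6 of the 113, beside 0.626%, 4.39% and 6.66% of all probe sets. The 1 at LG was higher, as were 1.97% of all probe sets, and of the 6 at EN 1 was higher and 5 were lower, beside 3.44% and 3.22%. The 95% interval of a difference had a median half-width of 0.61, 0.63 and 0.56 at the 3 stages. These intervals are from the unpaired fits and include differences between clutches. With the replicate number as a block, 0 passed at any stage and 16, 14 and 12 had an unadjusted p under 0.05, beside 9.06%, 14.3% and 17.9% of all probe sets.

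At EG the differences lay between -0.39 for tubb2b.S and 0.54 for cep83.L. Both moved with single arrays, to between -0.8 (without water replicate 3) and -0.16 (without water replicate 1) for tubb2b.S and to between 0.02 (without water replicate 2) and 1.14 (without Gam1 replicate 2) for cep83.L. The groups did not overlap for 1 of the 113 probe sets, or 0.885%, beside 1.93% of all probe sets. This was cep152.L, which guides centriole duplication. It read 7.08, 6.77 and 6.69 in water embryos and 7.13, 7.55 and 7.18 in Gam1 embryos, a difference of 0.44 (unadjusted p = 0.0938, adjusted p = 1 in limma).

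At LG, cep57l1.L, a relative of the centrosome protein Cep57, read 9.53, 9.55 and 9.44 in water embryos and 9.93, 9.74 and 9.68 in Gam1 embryos. The groups did not overlap, as for 5 of the 113 probe sets, or 4.42%, beside 9.3% of all probe sets, and the difference was 0.28 (adjusted p = 1 in limma). All 8 probe sets for cytoplasmic dynein and cargo kinesins had a positive difference, with a median of 0.14 and a largest value of 0.35, and none passed. The beta-tubulin tubb6.L had the largest difference, 1.13, with an interval from -0.55 to 2.81, and it was 0.43 without water replicate 1 and 1.61 without water replicate 2.

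**Figure D5:**
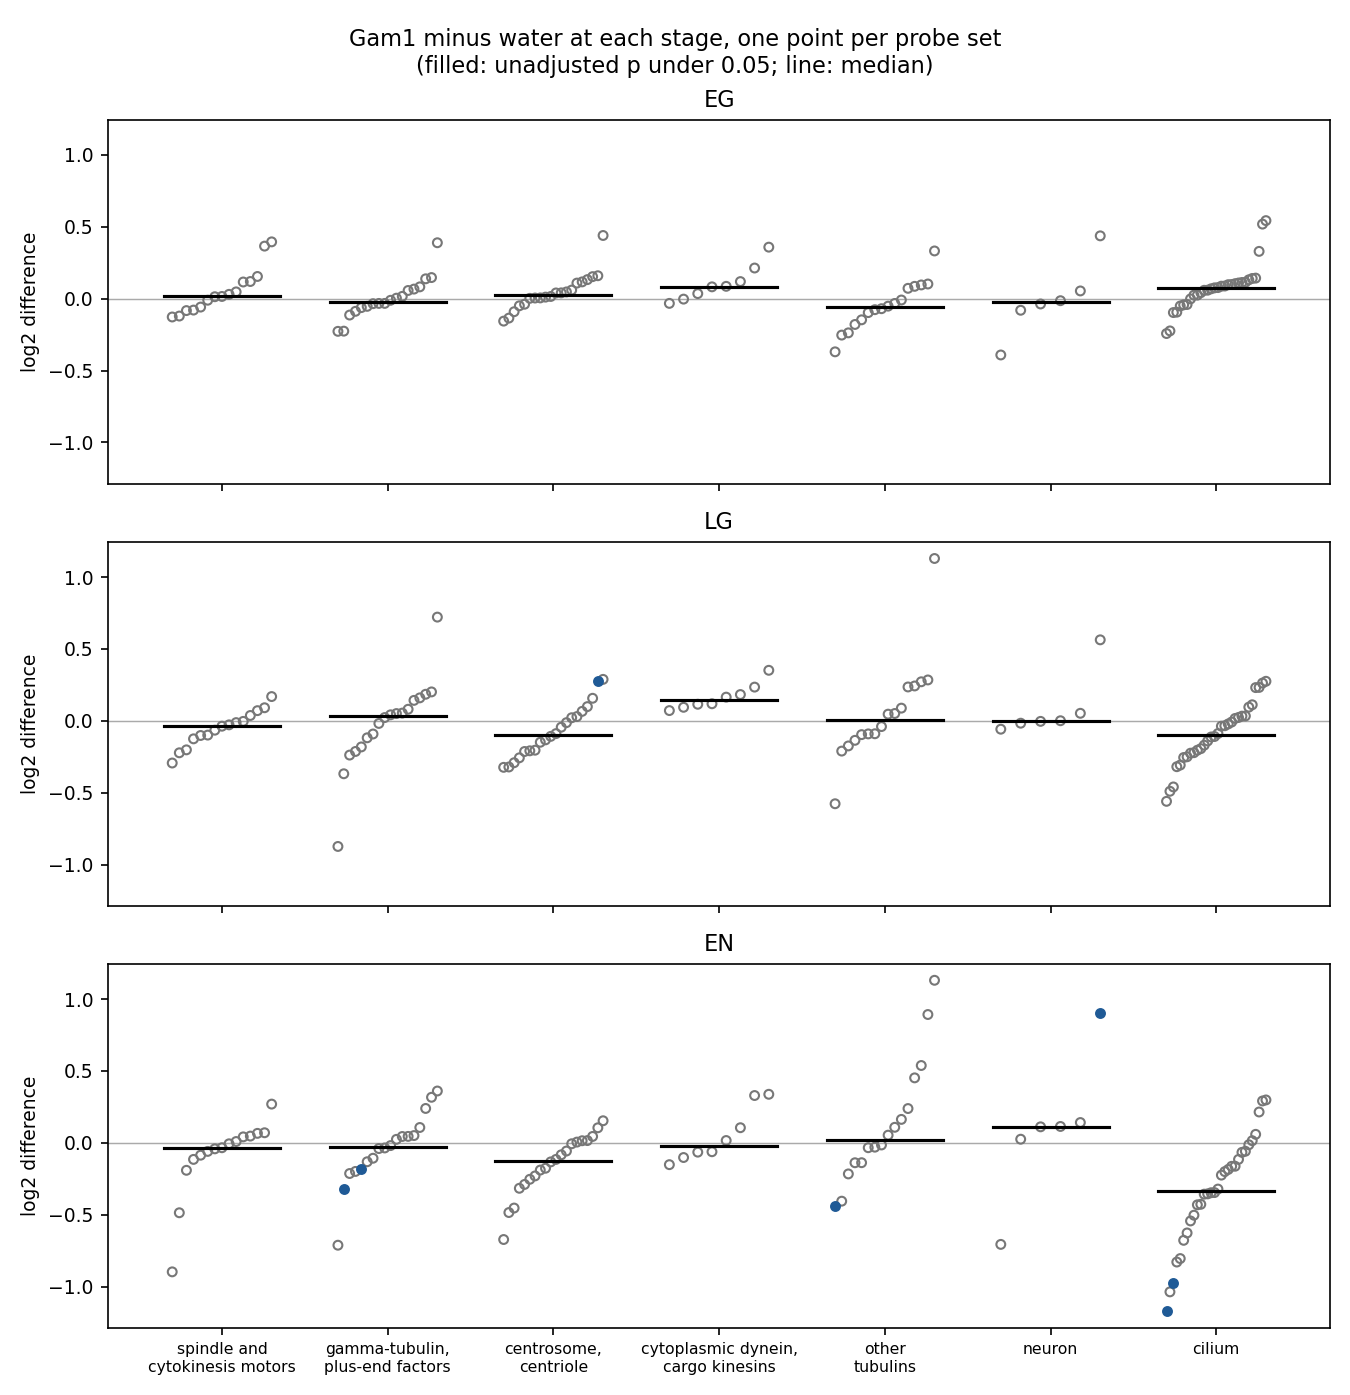
Log2 difference between Gam1 and water embryos of each of the 113 probe sets at EG, LG and EN, by group. Filled points had an unadjusted p under 0.05 (0, 1 and 6 probe sets), lines are medians, and no probe set passed after adjustment. The median of the cilium group at EN was -0.33.

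The 6 at EN were cep83.L, cep83.S, tubgcp4.L, tubgcp6.L, tubb4b.S and mapre3.S, with adjusted p between 0.56 and 0.715 in limma. For cep83, a protein of the appendages that anchor a centriole to the membrane when a cilium forms, both copies were lower. The L copy read 8.45, 8.1 and 9.02 in water embryos and 7.5, 6.6 and 7.97 in Gam1 embryos. The S copy read 6.76, 6.43 and 7.25 and then 6.09, 5.41 and 6.01.

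The groups did not overlap for either copy of cep83, and each was lower in all 3 pairs of the same replicate number. The differences were -1.17 for L and -0.97 for S. At LG the values for these copies were -0.11 and -0.2. With all 18 arrays in a fit with the replicate number as a block, cep83.L passed (adjusted p = 0.0471), the only one of the 113, beside 1.4% of all probe sets.

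The beta-tubulin tubb4b.S, in the group of other tubulins, read 11.64, 11.58 and 11.43 in water embryos and 11.26, 11.18 and 10.89 in Gam1 embryos. The difference was -0.44, with groups apart. The highest difference of the 113 at EN, 1.13, was also in this group and did not pass. For tuba1l.S, of the same group, the difference lay between 0.53 and 1.27 when single arrays were left out. The plus-end protein mapre3.S read 3.56, 4.72 and 4.13 and then 5.08, 4.99 and 5.04, a difference of 0.9, at a stage when it had fallen from 8.73 at EG in water embryos. The ring proteins tubgcp4.L and tubgcp6.L had differences of -0.32 and -0.18. Groups did not overlap for 15 of the 113 probe sets at EN, or 13.3%, beside 12.8% of all probe sets.

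With the replicate number taken as a block within each stage in the fit of all 18 arrays, 7 of the 113 passed at EN, beside 8% of all probe sets. These were cep83.L, cep83.S, tubgcp4.L, tubb4b.S, mapre3.S, dync1li1.S (0.33) and cep97.L (-0.45), the last a protein that caps centrioles.

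The cilium group had the lowest median difference at EN. Of its 30 probe sets 25 had a negative value, and the median was -0.33, beside -0.0023 for all probe sets, of which 12139 of 23630 were negative. The outer-arm chain dnai1.L read 7.22, 6.82 and 6.97 in water embryos and 4.92, 6.16 and 6.82 in Gam1 embryos, a difference of -1.04 (adjusted p = 0.812 in limma), which was -0.51 without Gam1 replicate 1 and -1.46 without Gam1 replicate 3. The first pair of arrays had the lowest median over the 30 probe sets, -0.71, beside -0.27 in the second pair and -0.01 in the third. In these pairs 24, 28 and 17 of the 30 were negative. Without both arrays of replicate 1 the median was -0.14, with 25 negative. Without water replicate 1 at EN the median was -0.12 and 19 probe sets were negative, and without Gam1 replicate 1 it was -0.31 with 27 negative. The same group had a median of -0.1 at LG, which was 0.02 with 14 of 30 negative without water replicate 1, and of 0.08 at EG, which was 0.01 with 15 negative without water replicate 3.

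Markers of multiciliated cells, foxj1, mcidas, ccno and tekt2, were also lower on average in Gam1 embryos. Their 7 probe sets averaged between 8.33 and 8.93 on the water arrays and between 7.71 and 8.5 on the Gam1 arrays at EN. At LG the ranges were 7.43 to 8.21 and 7.06 to 7.29, which did not overlap. None of the 7 passed the adjusted test. The neural plate ranges also lay apart at LG (water 11.26 to 11.44, Gam1 10.72 to 11.14) and at EG (9.32 to 9.4 and 8.87 to 8.99). The median differences at LG were -0.71 for multiciliated cells, -0.4 for neural plate, -0.52 for epidermis and -0.45 for muscle. For endoderm the LG median was -0.07, and for organizer and mesoderm it was -0.05. Markers of several other tissues were also lower on average at EN. The neural plate probe sets averaged between 11.45 and 11.49 on the water arrays and between 10.68 and 11.33 on the Gam1 arrays, and those for epidermis between 10.31 and 10.64 and between 10 and 10.14, without overlap in either list. The median differences at EN were -0.36 for multiciliated cells, -0.3 for neural plate, -0.33 for epidermis, -0.44 for muscle, -0.05 for endoderm and 0.01 for organizer and mesoderm. None of these probe sets passed, and the part of any cell type in the cilium values was not tested. How often averages over a list lie apart was not counted for other genes. For single probe sets the groups did not overlap in 1.93%, 9.3% and 12.8% of all probe sets at EG, LG and EN.

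The medians of the spindle motors were 0.02, -0.04 and -0.03 at EG, LG and EN. At EN the value furthest from 0 in this group was -0.9 for kif15.L (interval from -1.88 to 0.09). The forms known from neurons had a median of 0.11, with -0.71 for the kinesin-4 motor kif21a.L and, for tubb2b.S, 7.92, 8.72 and 9.12 in water embryos and 8.92, 8.56 and 8.7 in Gam1 embryos, which overlapped.

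Genes that work beside these proteins were counted for comparison. Of 60 probe sets for spindle partners, such as mitotic kinases, checkpoint proteins and cyclins, 33 fell and 6 rose over gastrulation in water embryos, beside 29.6% and 24% of all probe sets. Among them cdc20.L, an activator of the anaphase-promoting complex, fell by 2.32, racgap1.L, which works with kif23 in cytokinesis, by 1.41, and birc5.L (survivin) by 2.65. From LG to EN 4 fell and none rose, beside 3.69% and 4.09% of all probe sets. Those that rose over gastrulation included the kinase gene aurka.L, by 1.2, and its partner tacc3.L, by 1.91.

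Of 23 probe sets for cilium partners, 7 rose and 2 fell over gastrulation, beside 24% and 29.6% of all probe sets, and 6 rose and none fell from LG to EN, beside 4.09% and 3.69%. The ciliogenesis regulator foxj1.S rose by 4.45 over gastrulation and foxj1.L by 3.74. From LG to EN 1 probe set of the axonemal gene spag6.L rose by 5.07, tekt1.L by 1.84 and tekt2.S by 4.91. Of 16 probe sets for neuron partners 7 rose over gastrulation and 3 from LG to EN, and none fell at either step, beside the same shares of all probe sets, with syt1.L at 7.82 and elavl3.L at 4.84 over gastrulation. In the Gam1 comparison no probe set of these 3 lists passed at any stage, and the median differences at LG and EN were -0.19 and -0.57 for the cilium partners, -0.15 and -0.4 for the neuron partners, and -0.02 and -0.002 for the spindle partners. An unadjusted p under 0.05 was found at LG and EN in 7 and 4 of the 23 cilium partners, 2 and 3 of the 16 neuron partners, and 0 and 6 of the 60 spindle partners, beside 4.39% and 6.66% of all probe sets. The cilium partners include the multiciliated cell markers foxj1, mcidas, ccno and tekt2, so these lists are not separate evidence. The 7 probe sets of those markers gave 5 of the cilium partner counts at LG and 2 at EN.

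Marker genes of the tissues in these embryos gave the setting in water embryos over gastrulation. Of the 8 probe sets for neural plate 6 rose and 2 fell, of the 12 for epidermis 10 rose, of the 13 for endoderm 10 rose, all 5 for muscle rose, and of the 7 for multiciliated cells 3 rose. None of the last 4 lists had a probe set that fell. Of the 8 probe sets for organizer and mesoderm 2 rose and 4 fell. Among all probe sets 24% rose and 29.6% fell at this step.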

How the data were processed

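The deposited values are log2 expression from 18 single-colour Affymetrix X. laevis 2.0 arrays; the authors made them from the scanner files with Bioconductor and quantile normalization, so every array has a median of 7.72 and a range from 2.07 to 16.13. The background correction and the summary of probes are not given in the sources used here. Array number limits the precision, with 3 replicates a group. Of the deposited table all 18 sample columns were used and 71 Affymetrix controls left out. Gene symbols came from the platform annotation, and all 113 gene IDs matched the RefSeq table of Xenopus_laevis_v10.1.

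Stages and treatments were compared with limma 3.58.1 in R 4.3.3 (lmFit and eBayes with a trend of spread on signal), unpaired, with Benjamini-Hochberg adjustment over 23630 probe sets at 0.05. Treatments at a stage used 6 arrays, stages within a treatment 9, and differences of course 18. The methods name Student's test at each stage, which was run as an alternative. The study ties replicates to clutches of eggs, and deviations of Gam1 and water arrays with the same number correlated between 0.686 and 0.941 over all probe sets, and between -0.62 and -0.233 with different numbers, so the numbers pair the arrays. The members, roles, partner lists and marker lists were chosen with earlier results of these data known. Named genes were those passing in a Gam1 comparison, up to 3 per role and stage by smallest p with the same direction in all 3 pairs, up to 3 per role and step by size among calls in water embryos, their copies, and tubb2b, tubb3, kif11, kif2c, stmn1 and tubg1; some others are named after their values were seen. The test between copies, the exclusion of pairs, and the block within stage were also chosen after seeing the data. For the test between copies the probe set with the highest mean stood for each copy. Alternatives were the replicate block, no trend, a filter at a mean log2 value of 6, median centring without the members, fits of all 18 arrays, and leaving out each array. The unpaired fits were tested on simulated data drawn without differences between clutches, and the fits with a block were not tested in this way. Python 3.11.15 was used for tables and plots.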

Additional observations from a re-analysis of the deposited data

How the results depend on the processing

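Between EG and LG the counts of called probe sets stayed within 1.5 times of 69 in water and 72 in Gam1 embryos in every setting run, and 0 passed for the differences of course. Counts within a group moved more. Without the Gam1 arrays of replicate 2, the 12 cilium calls became 3 and the 9 spindle motor calls became 4. In water embryos the 9 spindle motor calls became 4 without replicate 1, and the 9 cilium calls became 14 with the replicate block. From LG to EN in water embryos 16 became 30 with the replicate block, 29 in the unpaired fit of all 18 arrays, 1, 0 and 0 without the arrays of replicate 1, 2 or 3, and between 0 and 29 when single arrays were left out. In Gam1 embryos 20 became 41, 32 and 2, 0 and 0 in the same settings, and between 3 and 22 without single arrays.

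For Gam1 against water the count of tubulin, kinesin and dynein probe sets passing adjustment was 0 at each stage and setting, except at EN. There it was 1 in the fit of all 18 arrays with the replicate block and 7 with the block within stage. Probe sets with an unadjusted p under 0.05 numbered 0 at EG but 16 with the replicate block, 1 with no trend, 1 in either fit of all 18 arrays, 11 with the block within stage, 1, 2 and 2 without pair 1, 2 or 3, and up to 2 without single arrays. At LG 1 became 14 with the block, 0 with a mean of at least 6, 2 with the methods' t-test (limma's moderated test being replaced), 2 and 7 in the fits of all 18 arrays, 29 with the block within stage, 2 and 0 without pair 2 or 3, and between 0 and 2 without single arrays. At EN 6 became 12 with the block, 17 in the fit of all 18 arrays with the block, 28 with the block within stage, and between 2 and 10 without single arrays (2 without Gam1 replicate 2, 3 without water replicate 1, 10 without Gam1 replicate 3). With the block within stage, the shares of all probe sets were 6.05%, 24% and 27% at EG, LG and EN. In the fits of all 18 arrays they were 0.813%, 4.45% and 6.4% unpaired, and 1.56%, 9.6% and 12.9% with the block. The methods' t-test gave 4.11% at LG. After adjustment, the shares of all probe sets were 0.161%, 3.85% and 8% at EG, LG and EN with the block within stage. In the fits of all 18 arrays they were 0%, 0.207% and 0.588% unpaired, and 0.00846%, 0.563% and 1.4% with the block. The methods' t-test gave 0.00423%, 0% and 0% after adjustment. The replicate block changed no call among the named results in the fits of 1 stage or 1 treatment. With all 18 arrays it added the 1 call and, within stage, the 7 calls at EN above.

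None of the 33 course changes named changed sign in any setting. The rule for naming picked 60 Gam1 differences, not all of which are given above. Of these 60, 8 that did not pass changed sign without a single array: at EG dync1li1.L (-0.0638 to 0.28), dnal4.S (-0.0366 to 0.25), tubgcp4.L (-0.026 to 0.82), stmn1.L (-0.0145 to 0.14) and kif23.S (-0.23 to 0.0079), at LG kif22.S (-0.38 to 0.0071) and kif4a.S (-0.68 to 0.26), and at EN kif23.S (-0.0595 to 0.2001). The causes were not tested.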
